A study of Mus musculus with 6 samples.

Results

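Interferon receptors and antiviral effectors were taken as 9 genes: the receptor subunits Ifnar1, Ifnar2 and Ifngr1, the transcription factors Stat2 and Irf1, and the effectors Ifit3, Oas2, Trim25 and Adar. Their members are the Argonaute (Ago) footprints that overlap one of these genes on its own strand in the GENCODE vM1 annotation. There were 35 such footprints of 6270 in all, on 8 of the 9 genes. Trim25 had 11, Ifnar1 and Oas2 had 7 each, Ifnar2 had 3, Ifngr1, Irf1 and Ifit3 had 2 each and Stat2 had 1. Adar (chromosome 3, 89518944 to 89557368, plus strand), which converts adenosine to inosine in double-stranded RNA and is itself interferon-induced, had 0 footprints in the table.

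The method was HITS-CLIP: Ago was immunoprecipitated with the antibody 2A8 after cross-linking, and the RNA held by it was sequenced. Bone-marrow-derived macrophages were grown with M-CSF, matured for 7 days, and came from C57BL/6 littermates aged 6 to 12 weeks, 3 wild-type (WT) and 3 Apobec1-/- (KO) mice. APOBEC1 is an enzyme that changes C to U in mRNA, and how its gene was disrupted is not described in the labels. No interferon treatment is named in the labels. The authors deposited 1 occupancy value per genotype for each footprint, which is the footprint signal divided by the RNA-Seq expression of its transcript, and, for each genotype, how many of its 3 libraries held the footprint. A difference between the genotypes therefore has no replicate check, no standard deviation and no test, and a rule of 2-fold is used to describe it. Footprints of 1 gene come from the same libraries, some overlap and they may share the expression divisor, so they are not replicates of each other. Since whole cultures were lysed, fewer cells with a footprint and less Ago-bound RNA per cell cannot be told apart. As occupancy is a ratio, a change in the RNA-Seq expression it is divided by cannot be told apart from either. Of 7 macrophage marker genes 5 had footprints, and of 17 markers of T cells, B cells, neutrophils, dendritic cells and fibroblasts 0 had any. A gene can be expressed without a footprint, so this does not show that other cells were absent.

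Type I interferons bind a receptor made of Ifnar1 and Ifnar2, and interferon gamma binds one that contains Ifngr1. Both act through JAK kinases and STAT proteins, among them Stat2, which acts with Irf9 on the promoters of antiviral genes, and Irf1 is a transcription factor induced by interferon. Macrophages are both a source and a target of interferons. Ago proteins are guided by miRNAs, mostly to sites in 3′ UTRs, where they lower the stability or translation of the mRNA.

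All 35 footprints overlapped an annotated 3′ UTR, as did 6063 of all 6270. Of the 35, 3 ran past it, with the stop codon counted in the UTR, by 5 nt (Ifnar2 footprint 1 and Irf1 footprint 2) and by 18 nt (Ifit3 footprint 2). A match to the seed of a miRNA, bases 2 to 8 counted from its 5′ end, was searched for on the RNA strand for 23 families that are common in myeloid or other cells. It was found in 5 of the 35 footprints, against a share of 17.9% of all 6270. These 5 sites are shown first, because they are the places in the members where 7 bases match a family of that list. Each is given 5′ to 3′ as DNA letters of mouse build mm9, with the 7 bases that match the seed in capitals.

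Ifnar1 footprint 6, chr16:91506802-91506825, plus strand, miR-26: atgttgcaggttcctgTACTTGAa
Ifnar2 footprint 2, chr16:91404819-91404842, plus strand, miR-30: atttgggcatcaggatTGTTTACa
Irf1 footprint 2, chr11:53590803-53590826, plus strand, miR-30: ttataaaaatttaagtTGTTTACa
Ifngr1 footprint 2, chr10:19329901-19329924, plus strand, miR-23: cgtaagtctatggtagAATGTGAt
Trim25 footprint 10, chr11:88881209-88881232, plus strand, miR-146: catgagtgcgtgtttaAGTTCTCg

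The mature miRNAs that these sites match are shown with the seed in capitals, from the RefSeq miRNA table of build GRCm38.p6, in which all 23 names searched were found.

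mmu-miR-26a-5p: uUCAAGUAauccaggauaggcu
mmu-miR-30a-5p: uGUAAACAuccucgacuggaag
mmu-miR-23a-3p: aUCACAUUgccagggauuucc
mmu-miR-146a-5p: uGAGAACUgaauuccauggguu

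An A stood opposite base 1 of the miRNA at the miR-26 site and at both miR-30 sites, and not at the other two. The sites in Ifngr1 and Trim25 lay 4 and 2.5 nt from the centre of their footprints, while that of Irf1 was 39 nt past the centre and those of Ifnar1 and Ifnar2 began at base 17 of footprints of 204 and 95 nt. The miR-30 match was held by 1.12% of all footprints, the miR-23 match by 1.52%, the miR-26 match by 0.702% and the miR-146 match by 0.574%. None of the 7 Oas2 footprints held a match to a listed family, and neither did those of Stat2 or Ifit3. With a 6-base match (bases 2 to 7) the members with a site were 17 of 35, a share of 48.6% beside 46.0% of all footprints. A match is a description of the letters and does not show that the miRNA was bound.

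Over the 35 footprints, 20 were higher and 15 lower in KO than in WT, a share higher of 57.1% beside 48.7% of all footprints. The median log2 ratio of KO over WT was 0.15, beside -0.04 over all 6270, and the ratios ran from -3.69 to 3.56 where both values were above 0. Past 2-fold, 3 footprints were higher in KO, where 18.9% of all footprints were, and 8 were lower, where 24.2% of all were. The other 24 lay within 2-fold. By role, 10 of the 12 receptor footprints were higher in KO (median log2 ratio 0.78), against 1 of 3 for the transcription factors and 9 of 20 for the effectors (median -0.26). The 3 footprints past 2-fold higher were on Ifnar2 and Ifngr1, and the 8 past 2-fold lower were on Irf1, Ifit3, Trim25 and Oas2. The 8 lower ones are in the table through their WT libraries alone, as set out below. Nearest to the threshold were Oas2 footprint 7 (-1.02) just outside it and Ifnar1 footprint 7 (0.92) just inside. The difference between receptors and effectors was not tested.

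**Figure D1:**
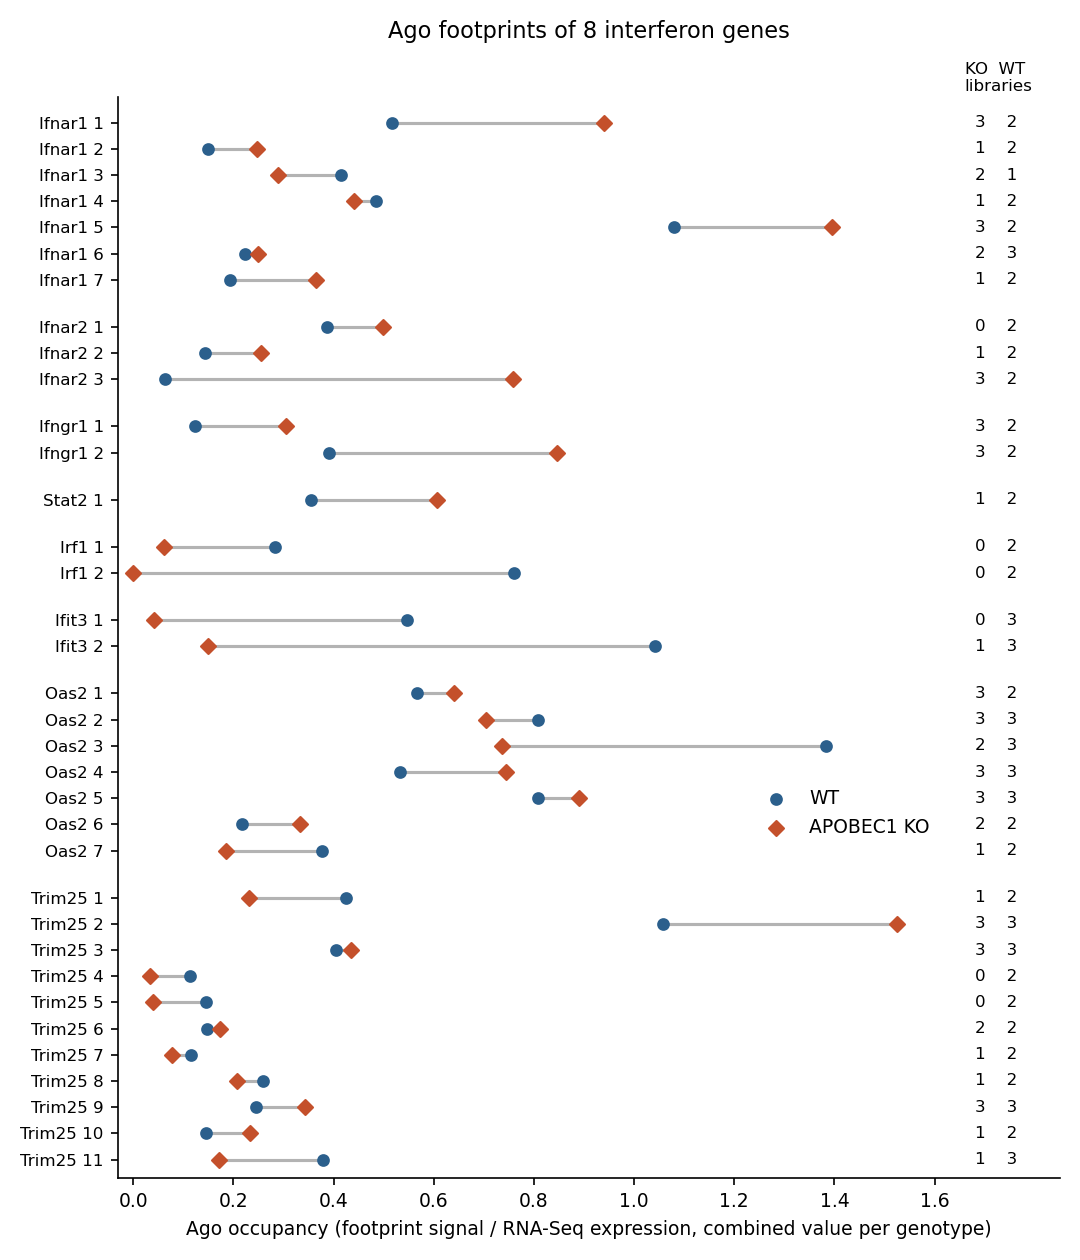
Ago occupancy (horizontal axis, a ratio of footprint signal to RNA-Seq expression) of each of the 35 footprints, numbered 5′ to 3′ within a gene, in WT (circles) and KO (diamonds), with its KO and WT library numbers at the right. The KO value lies to the right of the WT value in 10 of 12 receptor footprints and to the left in both footprints of Irf1 and of Ifit3.

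**Figure D2:**
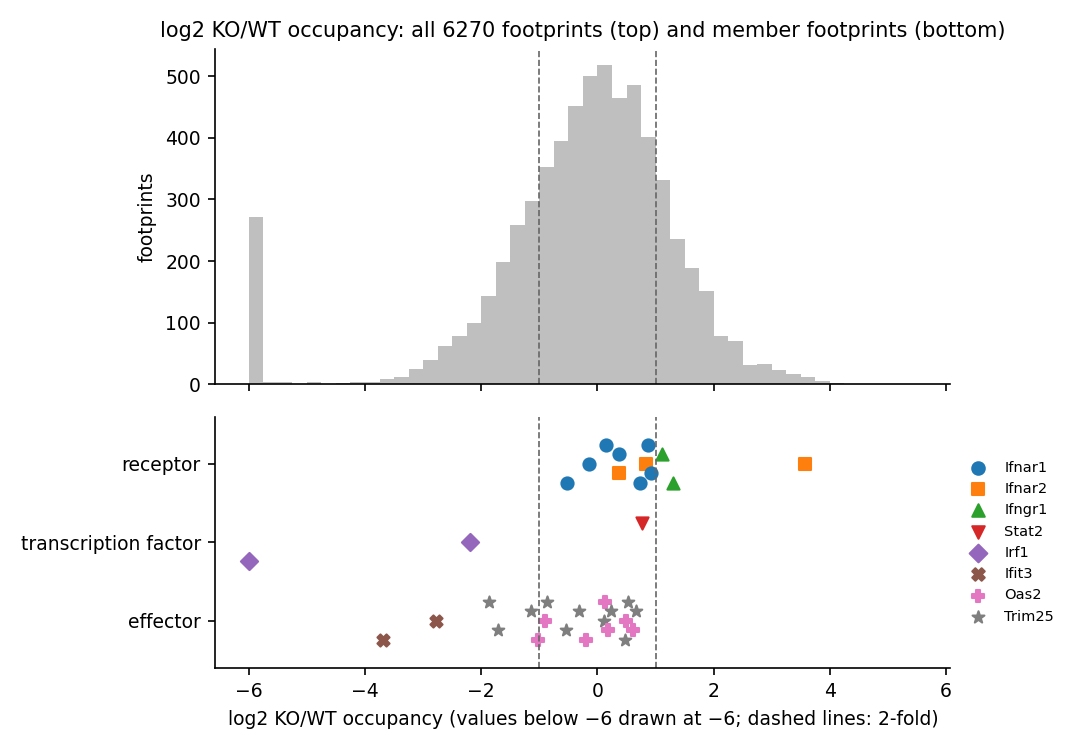
Log2 ratio of KO over WT occupancy for all 6270 footprints (top, number per bin) and for the members by role (bottom, 1 symbol per footprint). Receptor footprints lie between -0.52 and 3.56, and the lowest members are those of Irf1 and Ifit3, 1 of Irf1 being listed at 0 in KO and drawn at the left edge.

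By summed occupancy over a gene, 2 of the 8 genes were more than 2-fold higher in KO, Ifnar2 and Ifngr1, beside 11.7% of all 2223 genes. Another 2, Irf1 and Ifit3, were more than 2-fold lower, beside 17.9% of all genes. The other 4 lay within 2-fold: Stat2 at a log2 ratio of 0.77, Ifnar1 at 0.36, Trim25 at 0.01 and Oas2 at -0.15. In KO the sums were 4.23 for Oas2, 3.93 for Ifnar1, 3.47 for Trim25, 1.51 for Ifnar2, 1.15 for Ifngr1, 0.607 for Stat2, 0.191 for Ifit3 and 0.0607 for Irf1. In WT they were 4.69 for Oas2, 3.43 for Trim25, 3.06 for Ifnar1, 1.59 for Ifit3, 1.04 for Irf1, 0.593 for Ifnar2, 0.515 for Ifngr1 and 0.354 for Stat2. Ifit3 and Irf1 thus stood above Ifnar2 and Ifngr1 in WT and below them in KO. Sums grow with the number of footprints of a gene, and no spread is available to say which neighbours in these orders differ.

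**Figure D3:**
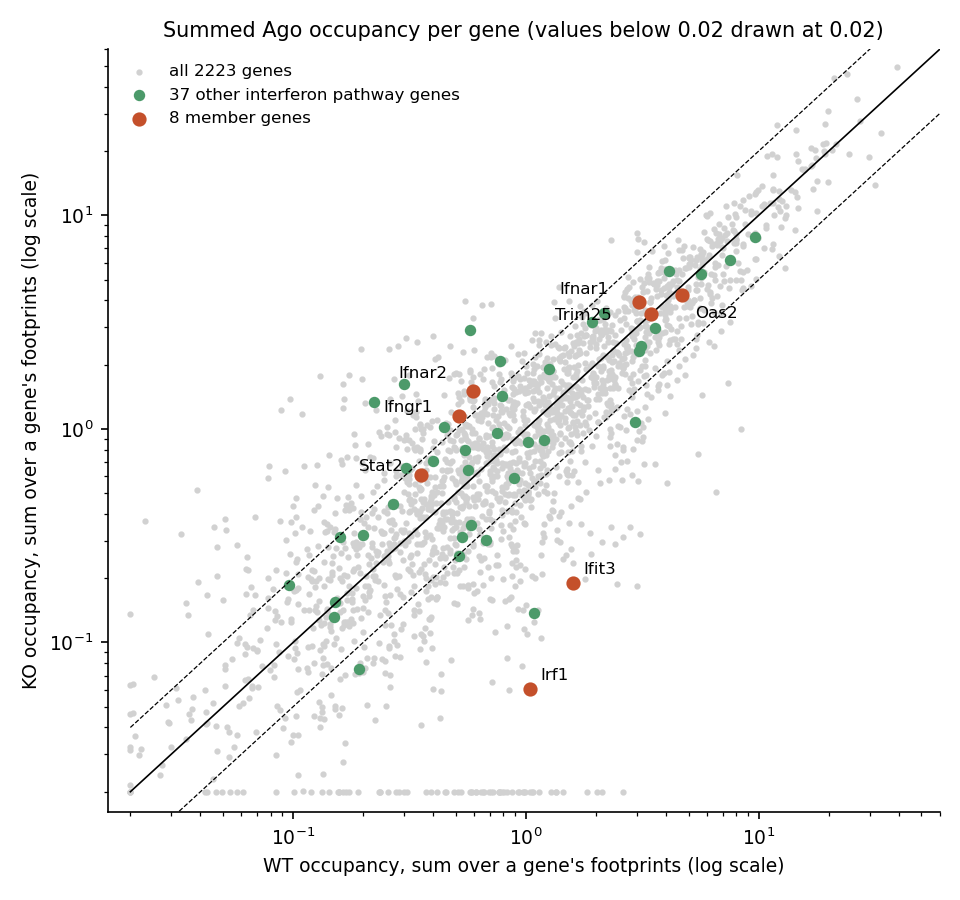
Summed Ago occupancy per gene in WT (horizontal, log scale) and KO (vertical, log scale) for all 2223 genes, the other interferon pathway genes and the 8 member genes, with the line of equality and the 2-fold lines dashed. Ifnar2 and Ifngr1 lie just above the upper 2-fold line, Oas2 and Trim25 close to the line of equality, and Irf1 and Ifit3 far below the lower 2-fold line.

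Ifnar1, a subunit of the type I interferon receptor (chromosome 16, 91485483 to 91507686, plus strand), carried 7 footprints spread over its 2030 nt 3′ UTR. The strongest was footprint 5 (91506510 to 91506573), centred 885 nt after the stop codon, with an occupancy of 1.40 in KO and 1.08 in WT, in 3 KO and 2 WT libraries. Footprint 1 (91505813 to 91505899) had 0.940 in KO and 0.516 in WT (log2 ratio 0.86), again in 3 KO and 2 WT libraries. These 2 were the highest of the gene in both genotypes. The middle of the UTR held a pair that overlapped by 8 nt and so share bases, footprint 3 (91506201 to 91506268; 0.290 in KO and 0.415 in WT) and footprint 4 (91506261 to 91506328; 0.440 and 0.485). They were the only 2 of the 7 that were lower in KO. Footprint 3 was the only one of the 35 found in fewer than 2 WT libraries, with 1 WT and 2 KO libraries. Of all footprints, 94.9% were in at least 2 WT libraries, beside 97.1% of the members. Footprint 2 (91505977 to 91506046; 0.247 in KO and 0.148 in WT) and footprint 7 (91507400 to 91507469; 0.365 and 0.193) were each held by 1 KO and 2 WT libraries. Footprint 6 (91506802 to 91507005), the longest of the 35 at 204 nt and the one with the miR-26 match shown above, had 0.248 in KO and 0.224 in WT. None of the 7 reached 2-fold, and their log2 ratios ran from -0.52 to 0.92.

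Ifnar2, the other subunit of that receptor (chromosome 16, 91373028 to 91419696, plus strand), is annotated with several 3′ ends. Footprint 1 (91394189 to 91394252) lay over the stop codon of the short transcript Ifnar2-002 (91394194 to 91394196), with 5 of its 64 nt before that codon. The 3′ UTR of that transcript is 89 nt long after the stop codon. Mouse Ifnar2 is known to give, beside the membrane receptor, a shorter soluble form, but whether Ifnar2-002 encodes it was not tested. The footprint had 0.498 in KO and 0.387 in WT, although 0 KO libraries held it. The sources used here do not say how such a value was made. In all, 5 of the 35 members had a KO value above 0 with 0 KO libraries, beside 1462 of all 6270 footprints (23.3%). The others were on Irf1, Ifit3 and Trim25, and their ratios carry the same limit. Footprints 2 and 3 lay 10566 nt and more downstream, in the 3′ UTR of the long transcripts. Footprint 2 (91404819 to 91404913), with the first miR-30 match, had 0.256 in KO and 0.143 in WT, in 1 KO and 2 WT libraries.

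Footprint 3 of Ifnar2 (91405108 to 91405288) had the highest ratio of the members, with 0.759 in KO and 0.0627 in WT, 12.1 times as much in KO (log2 ratio 3.56). It was held by 3 KO and 2 WT libraries. Its ratio was at or above that of 99.7% of all footprints. Its WT value was low, at or above only 5.87% of the WT values, whereas its KO value stood at 72.1% of the KO values. Without it, the other two footprints had log2 ratios of 0.36 and 0.83, so the 2-fold difference of the summed gene rests on this footprint. By the footprint with the highest mean of both genotypes, footprint 1, the gene had a log2 ratio of 0.36, whereas in KO footprint 3 was the highest. Summed over footprints held by at least 1 library of both genotypes, which leaves out footprint 1, it was 2.29.

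Ifngr1, the ligand-binding chain of the interferon gamma receptor (chromosome 10, 19311755 to 19330035, plus strand), had 2 footprints in a 3′ UTR of 541 nt. Footprint 1 (19329599 to 19329662), centred 136 nt after the stop codon, had 0.305 in KO and 0.123 in WT (log2 ratio 1.30). Footprint 2 (19329884 to 19329948), 422 nt after it and with the miR-23 match near its centre, had 0.846 in KO and 0.392 in WT (1.11). Both were more than 2-fold higher in KO, and both were found in 3 KO and 2 WT libraries. Ifngr1 was the only gene of the 8 with every footprint more than 2-fold higher in KO. With a pseudocount of 0.1 both were within 2-fold (0.86 and 0.94).

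Stat2, the transcription factor that carries the type I interferon signal (chromosome 10, 127707629 to 127729905, plus strand), had 1 footprint, at 127729037 to 127729109 in its 3′ UTR. Its occupancy was 0.607 in KO and 0.354 in WT (log2 ratio 0.77), in 1 KO and 2 WT libraries. It was higher in KO and within 2-fold.

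Irf1, a transcription factor induced by interferon gamma (chromosome 11, 53583516 to 53591876, plus strand), had 2 footprints, neither of them held by a KO library and each held by 2 WT libraries. Of all footprints, 27.9% were held by 0 KO libraries and 79.5% by 2 WT libraries. Footprint 1 (53589998 to 53590075), centred 88 nt after the stop codon, had 0.0607 in KO and 0.283 in WT (log2 ratio -2.19). Footprint 2 (53590736 to 53590830), centred 42 nt before the annotated end of the 877 nt 3′ UTR of transcript Irf1-002, was listed at 0 in KO and had 0.761 in WT. No fold is given for it. The second footprint thus carried 72.9% of the summed WT occupancy of the gene, and the summed log2 ratio of -4.07 rests on it. With footprint 1 alone it was -2.19, but how the KO value of that footprint was made without a KO library is not stated.

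Ifit3, an interferon-induced antiviral protein that binds other IFIT proteins (chromosome 19, 34658021 to 34663221, plus strand), had 2 footprints at the very end of its 464 nt 3′ UTR, which overlapped each other by 25 nt. Footprint 1 (34663108 to 34663183) had 0.0409 in KO and 0.547 in WT (log2 ratio -3.69), in 0 KO and 3 WT libraries. Footprint 2 (34663159 to 34663239), which ran 18 nt past the annotated end of the gene, had 0.150 in KO and 1.04 in WT (-2.78), in 1 KO and 3 WT libraries. Both were lower in KO and each was held by all 3 WT libraries. Since they share bases they are not separate observations. It is not stated how the KO value of footprint 1 was made with 0 KO libraries. Footprint 1 is identical in 72 of its 76 bases to the 3′ UTR of the neighbouring gene I830012O16Rik (chromosome 19, 34687477 to 34687552), where the table has 0 footprints, so its reads may be split between or taken from both genes. The best match of footprint 2 elsewhere in the genome covered 29 of 81 bases.

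Oas2, an oligoadenylate synthetase that senses double-stranded RNA and activates RNase L through its product (chromosome 5, 121180342 to 121199862, minus strand), had 7 footprints over a 3′ UTR of 1625 nt. Of these, 3 were held by all 6 libraries and 6 by at least 2 libraries of both genotypes. In KO the 5 nearest the stop codon lay between 0.639 and 0.890, and the last 2 were lower at 0.334 and 0.185. In WT the 7 ran from 0.218 to 1.38. The highest in WT, footprint 3 (121181320 to 121181383), had 0.735 in KO and 1.38 in WT (log2 ratio -0.91), in 2 KO and 3 WT libraries. In KO footprints 4 and 5 stood above it. The middle of footprint 3 is shown because no listed family matches it although it has the highest WT occupancy of the 35.

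Oas2 footprint 3, chr5:121181337-121181366, minus strand: caggacaaactaagctgcatttctcccttc

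Of the others, footprint 7 (121180456 to 121180545), the farthest from the stop codon, was just past 2-fold lower in KO, with 0.185 in KO and 0.376 in WT (-1.02), in 1 KO and 2 WT libraries. With a pseudocount of 0.1 its ratio was -0.74. Footprints 1 (121181734 to 121181803; 0.639 in KO and 0.566 in WT) and 2 (121181686 to 121181759; 0.705 and 0.808) overlapped by 26 nt and differed in direction. Footprint 4 (121181210 to 121181290) had 0.745 and 0.532, footprint 5 (121180962 to 121181028) 0.890 and 0.809, and footprint 6 (121180699 to 121180764) 0.334 and 0.218, in KO and WT. The gene was therefore a mixture, with 4 footprints higher and 3 lower in KO, and the sums differed little, at 4.23 and 4.69.

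Trim25, a ubiquitin ligase that acts on the RNA sensor RIG-I (chromosome 11, 88860690 to 88881607, plus strand), had the most footprints of the group, 11 over a 3′ UTR of 3572 nt. Footprint 2 (88878720 to 88878782), centred 716 nt after the stop codon, stood out with 1.52 in KO and 1.06 in WT (log2 ratio 0.53) and was held by all 6 libraries. It was the highest KO value of the 35 and made up 44.0% of the gene's summed KO occupancy and 30.8% of its WT sum. Footprint 3 (88879005 to 88879074; 0.435 in KO and 0.404 in WT) and footprint 9 (88880782 to 88880858; 0.343 and 0.246) were likewise held by all 6 libraries. These 3 were higher in KO and within 2-fold.

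The lowest ratios of Trim25 were those of footprint 5 (88879836 to 88879996; 0.0384 in KO and 0.145 in WT; -1.87) and footprint 4 (88879318 to 88879411; 0.0333 and 0.113; -1.72), which no KO library held. Footprint 11 (88881303 to 88881378), in 1 KO and 3 WT libraries, had 0.171 and 0.378 (-1.14). These 3 were past 2-fold lower, and they lay in the middle and at the end of the UTR. With a pseudocount of 0.1 all 3 were within 2-fold (-0.82 for footprint 5, -0.68 for footprint 4 and -0.82 for footprint 11). The origin of the KO values of footprints 4 and 5, which no KO library held, is not stated. Footprint 1 (88878334 to 88878399) had 0.231 in KO and 0.424 in WT, footprint 7 (88880306 to 88880393) 0.0778 and 0.114, and footprint 8 (88880403 to 88880465) 0.207 and 0.258. These were lower in KO and within 2-fold, each in 1 KO and 2 WT libraries. Footprint 6 (88880158 to 88880225) had 0.174 and 0.148 in KO and WT, and footprint 10 (88881194 to 88881257), with the miR-146 match, 0.233 and 0.146. In all, 5 of the 11 were higher and 6 lower in KO, and the sums were 3.47 and 3.43. Footprint 11 shares its middle 30 bases with 1 other place in the genome. The middles of the other 34 members occur once. Over its whole length, the best match of footprint 11 elsewhere was identical in 60 of 76 bases. Those of Trim25 footprints 2 and 10 were identical in 50 of 63 and 50 of 64 bases.

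**Figure D4:**
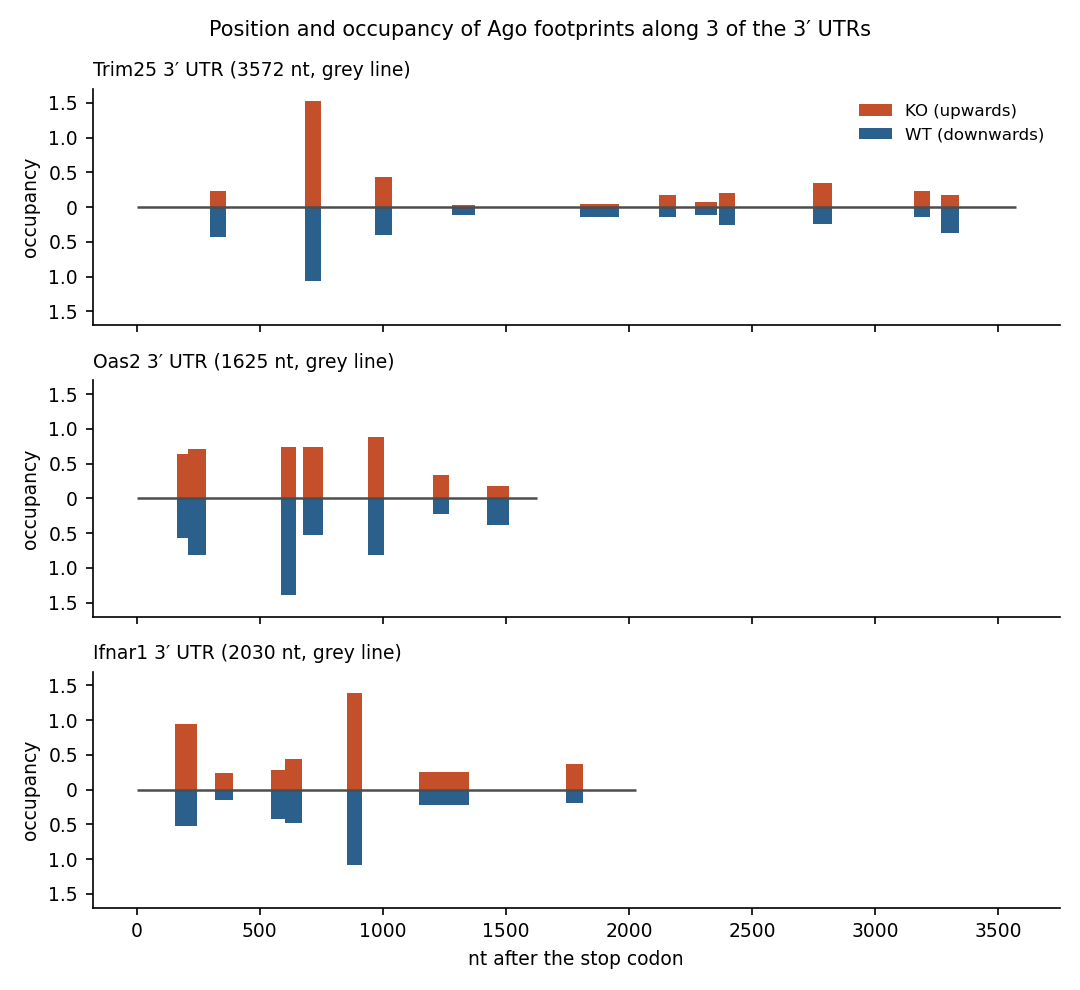
Occupancy of the footprints along the 3′ UTRs of Trim25, Oas2 and Ifnar1 (horizontal axis, nt after the stop codon), KO upwards and WT downwards, each bar as wide as its footprint. The highest bars of both genotypes lie at 716 nt in Trim25 and at 885 nt in Ifnar1, and Oas2 has 5 of similar KO height in its first 973 nt.

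The number of libraries that held a footprint moved with its ratio. Of the 35, 16 were held by 2 or more libraries of each genotype, beside 35.0% of all footprints, and 6 in all 6 libraries, 3 of Oas2 and 3 of Trim25. The 12 members held by 3 KO libraries had a median log2 ratio of 0.48, and 11 of them were higher in KO, as were 601 of the 806 such footprints of the table. The 6 held by 0 KO libraries had a median of -2.03, and 1 was higher, beside 282 of 1752 in the table. Over the whole table the median was -1.32 for footprints in 0 KO libraries, -0.04 in 1, 0.55 in 2 and 0.53 in 3, so it did not rise from 2 to 3. Of the 8 members past 2-fold lower in KO, 5 were held by 0 KO libraries and the other 3 by 1. Each footprint of the table is in 2 or more libraries of WT, of KO or of both, so all 8 entered it through WT alone. Their low KO values are therefore not independent of how they entered. Among the 16 in at least 2 libraries of both genotypes, 14 were higher in KO and 0 were past 2-fold lower, with a median of 0.42. Of all 2196 such footprints 1504 were higher and 110 past 2-fold lower, with the same median of 0.42. There, the 6 on receptors had a median of 0.99 and the 10 on effectors 0.20. The 6 found in all 6 libraries ran from -0.20 to 0.53, all within 2-fold, where 11.1% of the 369 such footprints of the table were past it. What part the KO libraries had in these ratios was not tested.

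**Figure D5:**
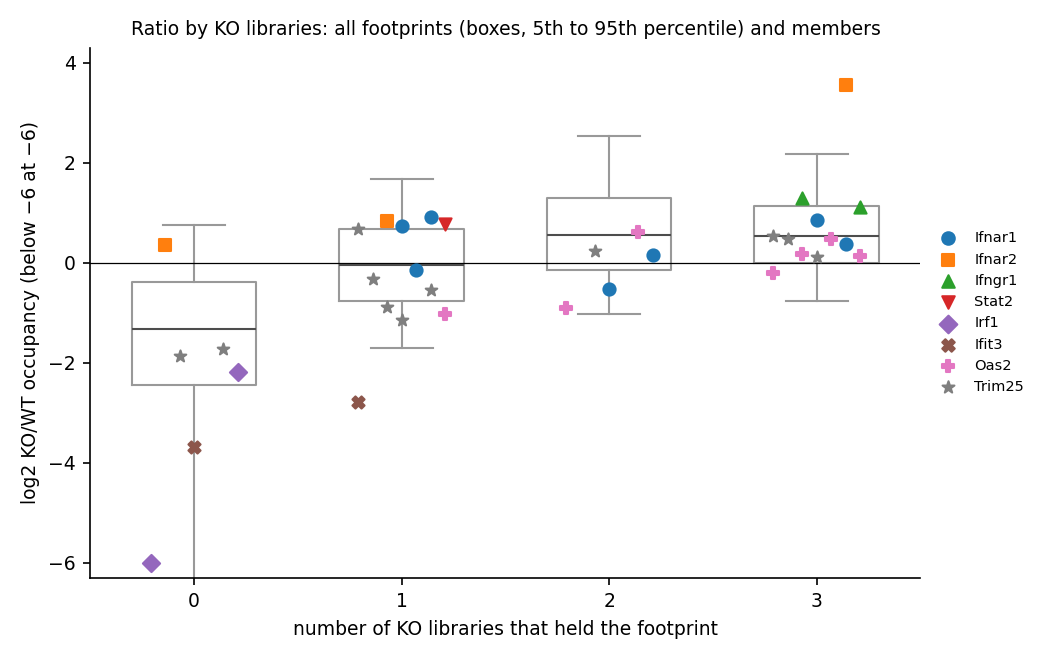
Log2 ratio of KO over WT occupancy by the number of KO libraries that held the footprint, for all footprints (boxes with quartiles, whiskers from the 5th to the 95th percentile) and for the members (symbols by gene). Members held by 3 KO libraries have a median of 0.48 and those held by 0 KO libraries -2.03.

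The base composition of the members was also set beside their ratios, because the 2 moved together in the whole table: the median log2 ratio was -0.87 among the 333 footprints within 2 percentage points of 28.1% G+C and 0.69 among the 202 around 60.8%. Median G+C content was 46.9% in the members and 42.9% in all footprints. Receptor footprints had a median of 48.9% and effector footprints 46.0%. Against the median ratio of all footprints within 2 percentage points of the same G+C content, 9 of 12 receptor footprints and 4 of 20 effector footprints were higher. Both Ifngr1 footprints, at 46.9% and 44.6%, stood above that median (0.25 and 0.12), and Ifnar2 footprint 3, at 51.9%, did too (0.33). Those of Ifit3 and Irf1 were below theirs. The part of base composition in the ratios was not tested.

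Some members had exactly the same value as other footprints. The KO value of Ifnar1 footprint 3 was equal to that of 6 other footprints of the table, and 4 further KO values, of Ifnar2 footprint 2, Irf1 footprint 1 and both Ifit3 footprints, were each equal to 1 or 2 others. In WT this was so for Ifnar2 footprints 1 and 2 and Ifngr1 footprint 1. These are 5 KO and 3 WT values of 35, beside 1989 KO values above 0 and 1166 WT values of all 6270. The sources used here do not say how equal values arose.

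Short sequence motifs of RNA decay and 3′ end formation were searched for on the RNA strand, a choice made after the values were seen. The polyadenylation signal AATAAA was in 2 of the 35 footprints, and in 7.00% of all. The AU-rich pentamer ATTTA was in 2, and in 11.9% of all. The Pumilio protein motif TGTANATA, where N is any base, was in 3, and in 3.81% of all. They are shown with the motif in capitals, because they include the strongest Trim25 footprint and the last footprints of Ifit3 and Irf1, both lower in KO.

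Ifit3 footprint 2, chr19:34663187-34663216, plus strand, AATAAA: tttttctctgcAATAAAtgacaactcccaa
Irf1 footprint 2, chr11:53590769-53590798, plus strand, TGTANATA: tggtggacctgTGTAAATAtgtatatttgt
Trim25 footprint 2, chr11:88878749-88878778, plus strand, TGTANATA: aaggaacctttTGTAGATAaggctgcagcc
Trim25 footprint 3, chr11:88879017-88879046, plus strand, TGTANATA: atcctctggatTGTAGATActgggctgatg

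Irf1 footprint 2 held 3 of the sequence features searched for, the Pumilio motif, the pentamer and the miR-30 match, within its 95 nt. It is longer than the median footprint of the table (72 nt) and lower in G+C, at 34.7% beside a median of 42.9%. How many of all footprints hold 3 of these features is not given here. The other AATAAA was in Trim25 footprint 4 and the other ATTTA in Ifnar1 footprint 1. These matches say nothing of whether the factors bound.

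The other genes of the interferon pathway were taken from a list of 94, of which 37 had footprints, 100 in all. By summed occupancy 6 were more than 2-fold higher and 5 more than 2-fold lower in KO, beside the 11.7% and 17.9% of all genes given above, and 26 lay within 2-fold. Their median log2 ratio was 0.20. The higher ones were Apobec3, a cytidine deaminase that restricts retroviruses (2.58; 1.34 in KO and 0.223 in WT), the phosphatase Ptpn6 (2.43), the signalling adaptor Traf3 (2.33), the nucleotide phosphohydrolase Samhd1 (1.43; 2.08 and 0.771 over 5 footprints), the nucleotide kinase Cmpk2 (1.19) and the kinase Ikbke (1.11). The lower ones were the STAT inhibitor Pias1 (-2.97; 0.137 in KO and 1.08 in WT), the transcription factor Irf5 (-1.44), the membrane protein Ifitm2 (-1.34), the antiviral Parp12 (-1.16) and Stat3 (-1.02). Of these 11 genes, 8 had 0 footprints held by 2 or more libraries of each genotype.

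The genes within 2-fold ran from -0.76 to 0.96, and those of them named next were picked as partners or relatives of the members with their values in view. By group, the 4 measured receptor chains and kinases besides the members (Ifngr2, Il10rb, Jak1 and Tyk2) all lay within 2-fold. Their median log2 ratio was 0.09. Ifngr2, the partner chain of Ifngr1, had 0.357 in KO and 0.579 in WT (-0.70), the direction opposite to Ifngr1. Of 7 transcription factors 0 were higher and 2 lower, with a median of -0.29 and Irf9, which joins Stat2, at 0.94. Both measured negative regulators were past 2-fold, in opposite directions. The 6 sensors and adaptors had a median of 0.78 with 2 higher and 0 lower, and Ddx58, which encodes RIG-I, the substrate of Trim25, stood at -0.28 (6.21 in KO and 7.57 in WT over 5 footprints). Among 18 antiviral effectors 3 were higher, 2 lower and 13 within 2-fold, with a median of 0.11. Oas3, a relative of Oas2, had 0.320 in KO and 0.199 in WT (0.68), and Ifit1, a relative of Ifit3, had 2.31 and 3.05 over 4 footprints (-0.40), against -3.05 for Ifit3.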

How the data were processed

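The authors separated miRNA from mRNA reads by length, mapped both to mm9, and took a footprint around the peak of each read cluster, per the series design text. The submitters' processing notes list Bowtie 0.12.8 and bedtools. In the table each footprint is present in 2 or more libraries of WT, of KO or of both. The authors deposited occupancy as a ratio of footprint signal to RNA-Seq expression, 1 value per genotype. The sources used here do not say how 3 libraries were combined or in what unit the divisor was, and read depth is unknown.

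Footprints were placed on NCBIM37 (the mm9 assembly) with GENCODE vM1, strand from the footprint identifier, and took the first class overlapped of 3′ UTR, coding sequence, 5′ UTR, exon and intron. UTR positions use the annotated transcript holding most of the footprint. Coordinates count from 1. The log2 ratio of KO over WT used a pseudocount of 0.00161 (50% of the smallest value above 0), which shrinks the ratios of low values. Gene values are sums. Sequences were read with pysam 0.24.0 and samtools 1.23.1, and copies sought with blastn 2.17.0. Functions were tested on simulated data. Members and lists were chosen with earlier results of these data known. All members are named, and pathway genes past 2-fold, at most 6 per direction, with exceptions marked. Alternatives tried were the pseudocount, filters on value and libraries, the footprint with the highest mean occupancy and shorter seed matches.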

Additional observations from a re-analysis of the deposited data

How the results depend on the processing

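No paired analysis was possible because the table holds 1 combined value per genotype. For the same reason no library could be left out. With a pseudocount of 1, no member footprint was past 2-fold (0 higher and 0 lower), and the summed log2 ratio was 0.66 for Ifnar2, 0.51 for Ifngr1 and -0.95 for Irf1. The sum of Ifit3 was still past 2-fold lower, at -1.12. Of the pathway genes, 2 were then higher and 0 lower. With a pseudocount of 0.1, 1 member footprint was higher and 4 lower, and 2 pathway genes were lower. Where the mean of both genotypes reached the table's median of 0.425, 1 of 13 members was higher and 1 lower. There 2 of 24 pathway genes were lower and Ifnar2 stood at 0.36, as it did by its footprint of highest mean. By that footprint 8 pathway genes were higher and 9 lower. In at least 2 libraries of both genotypes, 3 of 16 members were past 2-fold higher and 0 lower. Of all 2196 such footprints 575 were higher and 110 lower by that rule. Of 22 pathway genes 8 were higher and 0 lower, and Ifnar2 stood at 3.56. This filter left out every member footprint and pathway gene past 2-fold lower before, and Stat2, Irf1 and Ifit3 altogether. In at least 1 library of both, a choice made after the data were seen, 3 of 29 members and 3 of 31 pathway genes were lower. There 9 pathway genes were higher and Ifnar2 stood at 2.29. The median over all footprints, -0.04, was 0.039 among those above 0 in both genotypes, 0.074 with the median as minimum, 0.42 in at least 2 libraries of both and 0.28 in at least 1 of both. Seed matches went from 5 members to 17 with 6 bases and to 3 in the middle 63 bases. None of these alternatives could change the direction of a single footprint. A pseudocount added to both values keeps their order, and filters leave the values as they are. With unknown depth, no counting interval can be given.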

Other observations

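Past the annotated end of Ifnar1, on the same strand and outside any annotated gene, the table held 2 further footprints that the rule does not count. The nearer began 2079 nt past the end (chromosome 16, 91509765 to 91509831), with 0.551 in KO and 1.01 in WT (log2 ratio -0.87), in 0 KO and 2 WT libraries. The farther began 2735 nt past it (91510421 to 91510503), with 1.59 in KO and 1.58 in WT, in 2 KO and 3 WT libraries, a higher value than any of the 7 within the gene in either genotype. Whether they belong to a longer Ifnar1 transcript was not tested. None of the other 8 genes had a further footprint on its strand within 3000 nt past its end.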
